A study of Mus musculus with 84 samples.

Results

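The circadian clock genes described here are 10 transcripts of the molecular clock: Arntl and Clock (the activators), Per1, Per2, Per3, Cry1 and Cry2 (the repressors), Nr1d1 and Nr1d2 (the REV-ERB receptors) and Dbp (an output factor). They are 10 of the 55401 gene IDs counted, and all 10 passed the filter on low counts that left 17941 genes for testing. The set was chosen by the measured level of Per1, which was higher 7 days after the drug than after vehicle, so the comparison of 7 days with vehicle is a description without a test. The 24 h and 48 h comparisons share their vehicle mice with that choosing comparison and with each other, while 48 h against 24 h contrasts neither of the groups that chose the set. All tests come from a single fit over the 16 mice, so the 7 days mice also entered the filter, the scaling and the estimate of spread.

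RNA was sequenced from NeuN-positive nuclei, a sort that enriches neurons, taken from the frontal cortex of 129S6/SvEvTac mice aged 12 weeks. DOI (2,5-dimethoxy-4-iodoamphetamine) is a psychedelic agonist of serotonin 2A receptors. The groups were 4 mice given vehicle and 4 mice each sampled 24 h, 48 h and 7 days after a single exposure to DOI, with 2 libraries per mouse. The labels describe no genetic change in any group, and the dose, the sex, the hour of day and the time from vehicle to sampling are not given in the sources used here. Clock transcripts vary with the hour of day, and whether all groups were sampled at the same hour was not tested. H3K27ac chromatin samples of the series were not analysed here.

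The clock is a feedback loop of transcription. The proteins of Clock and Arntl (BMAL1) bind E-box sequences and activate the Per, Cry, Nr1d1, Nr1d2 and Dbp genes; PER and CRY proteins then inhibit that activation, and the REV-ERB proteins repress Arntl. In the cortex the loop runs in neurons and glia under the timing of the suprachiasmatic nucleus, and Per1 is also switched on by neuronal activity and glucocorticoids.

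The promoters of Per1, Per3 and Nr1d1 are shown because these 3 members rose after DOI, and that of Cry1 because it holds the same E-box as Per1 in a member that did not pass the test. Each window runs from 250 bases before to 50 bases after a RefSeq transcription start (build GRCm38.p6), 5′ to 3′ on the gene's strand, and capitals mark exact matches to a searched motif. The windows are chr11:69098699-69098998 (plus strand) for Per1, chr4:151044616-151044915 (minus strand) for Per3, chr11:98775328-98775627 (minus strand) for Nr1d1 and chr10:85185005-85185304 (minus strand) for Cry1.
Per1: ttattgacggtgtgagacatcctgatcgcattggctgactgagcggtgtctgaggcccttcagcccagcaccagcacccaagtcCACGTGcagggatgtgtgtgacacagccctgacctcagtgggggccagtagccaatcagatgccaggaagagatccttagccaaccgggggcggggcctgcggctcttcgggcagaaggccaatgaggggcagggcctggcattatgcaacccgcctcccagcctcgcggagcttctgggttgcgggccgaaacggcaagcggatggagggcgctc
Per3: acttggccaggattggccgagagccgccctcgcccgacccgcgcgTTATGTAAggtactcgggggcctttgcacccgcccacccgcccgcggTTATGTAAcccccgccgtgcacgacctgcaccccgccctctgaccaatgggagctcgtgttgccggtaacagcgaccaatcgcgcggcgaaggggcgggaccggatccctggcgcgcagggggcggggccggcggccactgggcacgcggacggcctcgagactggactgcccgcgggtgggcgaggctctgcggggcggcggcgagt
Nr1d1: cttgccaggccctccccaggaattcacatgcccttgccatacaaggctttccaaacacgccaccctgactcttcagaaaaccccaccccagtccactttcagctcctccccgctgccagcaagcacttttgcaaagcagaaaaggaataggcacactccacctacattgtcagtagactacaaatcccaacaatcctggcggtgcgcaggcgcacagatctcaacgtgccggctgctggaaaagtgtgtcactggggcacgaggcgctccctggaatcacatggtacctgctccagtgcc
Cry1: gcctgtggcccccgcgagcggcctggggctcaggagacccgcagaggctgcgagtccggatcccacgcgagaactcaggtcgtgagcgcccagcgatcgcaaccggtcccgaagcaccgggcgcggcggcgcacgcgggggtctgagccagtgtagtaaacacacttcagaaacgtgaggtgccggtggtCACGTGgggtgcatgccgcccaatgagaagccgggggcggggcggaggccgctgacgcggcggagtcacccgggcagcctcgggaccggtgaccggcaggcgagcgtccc

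The searched motifs, on both strands, were the E-box CACGTG, the D-box bound by DBP and its relatives (TTATGTAA or TTACGTAA), the REV-ERB/ROR element (TAGGTCA or TGGGTCA) and the cAMP response element TGACGTCA. The Per1 window, the first of its 2, held 1 E-box starting 166 bases before the start, and the Cry1 window 1 E-box at 60 bases before it. The Per3 window held 2 D-boxes, at 205 and 158 bases before the start, and the Nr1d1 window held none of the 4 motifs. Of all 32851 promoter windows of this length in the table, 7.15% held the E-box, 1.06% the D-box, 6.45% the REV-ERB/ROR element and 1.79% the cAMP response element. The table had 13 windows for 9 of the 10 members. Besides those printed, the only match was 1 REV-ERB/ROR element in the second window of Arntl, 30 bases after the start. These are matches of letters and were not measured as bound sites.

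In vehicle mice the members' levels per kb of exon spanned 33.6-fold. The level was highest for Cry2, a cryptochrome repressor, at 59.5 ± 6.35 CPM per kb (CPM are counts scaled to a common library total; SD, n = 4). Nr1d2 followed at 23.0 ± 6.42, Per3 at 17.4 ± 2.56, Clock at 13.8 ± 1.56, Arntl at 10.8 ± 0.685 and Per2 at 9.63 ± 3.12 CPM per kb. Dbp stood at 7.40 ± 1.51, Cry1 at 5.23 ± 0.117, Nr1d1 at 4.79 ± 0.552 and Per1 at 1.77 ± 0.455 CPM per kb. Neighbours in that order whose vehicle mice did not overlap were Cry2 and Nr1d2, Clock and Arntl, Dbp and Cry1, and Nr1d1 and Per1. The other neighbouring pairs overlapped between mice.

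**Figure D1:**
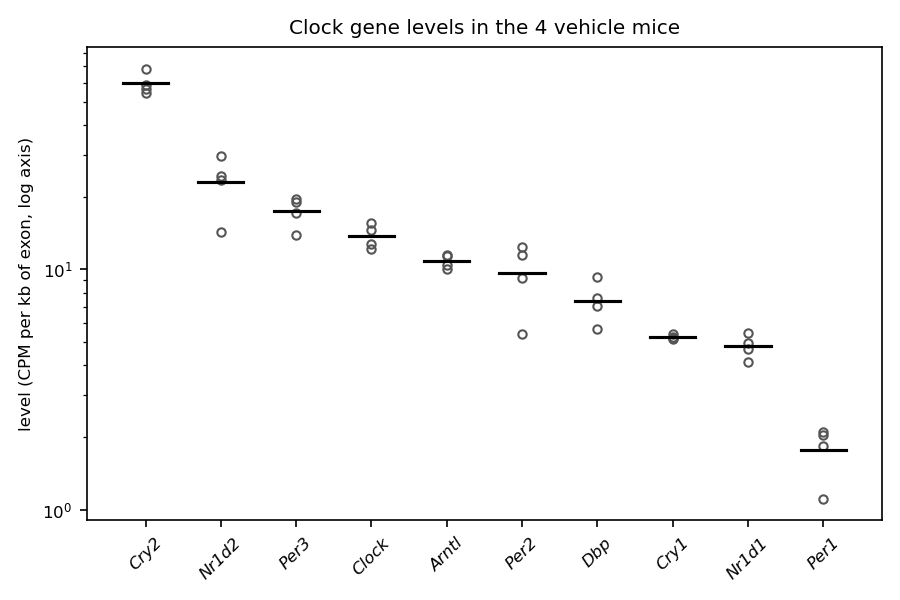
Level of each clock gene in the 4 vehicle mice, in CPM per kb of exon on a log axis, ordered by mean. Open circles are mice and bars are means; Cry2 (59.5) lies highest and Per1 (1.77) lowest.

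Depth and other features of the libraries moved with the groups. The summed libraries of a mouse held between 9151680 and 11517452 counts (vehicle), 6441396 and 8090559 (24 h), 5834248 and 7344355 (48 h), or 6972577 and 12354785 (7 days). An 18S ribosomal RNA pseudogene (CT010467.1) ranged over 72.3 to 110 CPM (vehicle), 3258 to 15064 CPM (24 h) and 5108 to 16124 CPM (48 h). At 7 days it was 87.3, 6171, 63.4 and 4622 CPM in mice 1 to 4, and on the first principal component of all genes (46.0% of the variance) mice 1 and 3 lay among the vehicle mice and mice 2 and 4 among the 24 h and 48 h mice. On the second component 48 h mouse 1 stood at 115, with every other mouse between -42.0 and 7.07, the lowest being 24 h mouse 1. These mice also had the fewest detected genes, 21266 and 22989, and results are therefore also given without both. The 7 neuronal markers together gave 6009 to 6339 CPM (vehicle), 4049 to 5948 (24 h), 3685 to 5864 (48 h) and 4536 to 6278 (7 days), with none at 0 in a whole group. The members of that list did not move alike. Snap25, its most abundant gene, ranged over 3717 to 4334 CPM (vehicle), 2278 to 3547 (24 h) and 2043 to 3169 (48 h). Slc17a7 (129 to 171 CPM in vehicle, 57.7 to 110 at 24 h) was also lower at 24 h without overlap. So were Gad1 (529 to 706 and 290 to 448) and Gad2 (217 to 303 and 138 to 188). Syt1 overlapped, at 869 to 1169 and 1033 to 1585 CPM. Rbfox3, which encodes NeuN, was higher without overlap, at 46.3 to 68.1 (vehicle), 88.4 to 115 (24 h) and 83.9 to 109 CPM (48 h). The 6 astrocyte markers summed to 740 to 811, 795 to 1154, 647 to 1114 and 538 to 769 CPM in the same order of groups, the 5 oligodendrocyte markers to 147 to 325, 148 to 227, 174 to 228 and 195 to 341, and the 2 precursor markers to at most 18.5 in any mouse. The 5 microglial markers summed to at most 132 CPM and the 4 endothelial markers to at most 14.5, with Cldn5 at 0 in every vehicle mouse. The 8 markers of striatal projection neurons together gave 244 to 416 CPM (vehicle), 169 to 287 (24 h) and 283 to 548 (48 h), and 598, 1721, 364 and 1164 in the 7 days mice 1 to 4. These striatal markers did not move alike either. Drd1 was lower at 24 h without overlap (35.4 to 45.8 CPM in vehicle, 14.1 to 29.0 at 24 h). Rgs9 was higher without overlap (4.78 to 8.25 and 8.53 to 20.4 CPM). The part of these marker lists in the results was not tested, and in RNA of pooled nuclei fewer cells of a type and less RNA per cell cannot be told apart.

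At 24 h after DOI, Per1, Per3 and Nr1d1 rose and Cry2 fell against vehicle (edgeR quasi-likelihood test, adjusted over all genes at 0.05). The 3 higher members of 10 stand beside 13.8% of all tested genes called higher, and the 1 lower member beside 10.4% called lower. The 3 include Per1, whose level against the same vehicle mice chose the set. At 48 h the same test called Per1, Per3 and Nr1d1 higher and no member lower, beside 16.8% of all genes higher and 13.3% lower. Over the 10 members the median log2 fold change was -0.23 at 24 h, where the median of all genes was 0.03, and -0.0026 at 48 h, where it was 0.02. The members thus moved unequally, with 3 far above 0 and the rest near or below it at 24 h. Groups without overlap numbered 3 higher and 1 lower at each time, beside 18.5% and 17.2% of all genes at 24 h and 19.2% and 19% at 48 h.

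The activators did not pass the test at either time. Arntl (BMAL1; chromosome 7, 113207465 to 113314126, plus strand) stood at 81.5 ± 5.15 CPM (vehicle), 75.7 ± 12.6 (24 h), 66.3 ± 15.0 (48 h) and 72.0 ± 7.42 (7 days), each the mean ± SD of 4 mice. Against vehicle its log2 value was -0.11 at 24 h (95% interval -0.49 to 0.27) and -0.30 at 48 h (-0.68 to 0.08), with edgeR adjusted p of 0.685 and 0.214. Clock (chromosome 5, 76209868 to 76304792, minus strand), the DNA-binding partner of BMAL1, stood at 189 ± 21.3, 183 ± 45.7, 208 ± 29.0 and 186 ± 15.6 CPM in the same order of groups. Its log2 fold change was -0.04 at 24 h (95% interval -0.42 to 0.33) and 0.14 at 48 h (-0.23 to 0.51), with edgeR adjusted p of 0.878 and 0.571. Each treated group overlapped the vehicle mice in both genes, and 48 h mouse 1 had the lowest Arntl level, 47.4 CPM.

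Per1 encodes a PERIOD repressor and lies on chromosome 11 from 69095217 to 69109960, plus strand (GRCm38, as all positions here). It stood at 6.23, 10.3, 11.8 and 11.5 CPM in vehicle mice 1 to 4 and at 29.5, 28.7, 45.4 and 47.2 CPM in the 24 h mice. At 48 h its levels were 42.4, 31.1, 23.1 and 48.4 CPM. Every mouse at both times thus lay above every vehicle mouse, the nearest being 48 h mouse 3. The rise was 3.79-fold at 24 h (log2 1.92, SE 0.32, edgeR adjusted p = 0.00196) and 3.64-fold at 48 h (log2 1.86, SE 0.32, edgeR adjusted p = 0.00171). The same vehicle mice served the comparison that chose Per1, so these p-values are not independent of that choice. These levels rest on 66 to 399 counts per mouse.

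Per3, the PERIOD gene with the highest vehicle level per kb, lies on chromosome 4 from 151003652 to 151044665, minus strand. Its vehicle mice stood at 134, 164, 183 and 188 CPM and its 24 h mice at 636, 451, 537 and 619 CPM. The 48 h mice stood at 458, 874, 578 and 501 CPM. No treated mouse at these times overlapped the vehicle mice, and the lowest of them, 24 h mouse 2, was well above the highest vehicle mouse. Per3 rose 3.35-fold at 24 h (log2 1.74, SE 0.33, edgeR adjusted p = 0.00308) and 3.60-fold at 48 h (log2 1.85, SE 0.33, edgeR adjusted p = 0.00185).

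Per2, the remaining PERIOD repressor (chromosome 1, 91415982 to 91459324, minus strand), did not pass the test against vehicle. It stood at 31.6, 72.9, 67.0 and 54.1 CPM in vehicle mice, 38.1, 39.3, 47.0 and 42.1 at 24 h and 75.5, 63.1, 58.0 and 73.1 at 48 h. Vehicle mouse 1 lay below every 24 h mouse and the other vehicle mice above every 24 h mouse, so that these groups overlapped through that mouse. The log2 fold change was -0.44 at 24 h (95% interval -0.89 to 0.01, edgeR adjusted p = 0.142) and 0.26 at 48 h (-0.19 to 0.71, edgeR adjusted p = 0.372). Without vehicle mouse 1 the 24 h value was -0.64 (edgeR adjusted p = 0.0312), past the threshold. It passed in only this 1 of 8 fits that left out a mouse and in 0 of 11 other settings.

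Cry2 (chromosome 2, 92403646 to 92434043, minus strand) stood at 344, 434, 371 and 355 CPM in vehicle mice and 225, 224, 279 and 241 CPM at 24 h. At 48 h it stood at 326, 234, 214 and 265 CPM. All of these treated mice lay below all vehicle mice, with 48 h mouse 1 nearest to them. At 24 h Cry2 fell to 64.4% of vehicle (log2 -0.63, SE 0.22, edgeR adjusted p = 0.043), and at 48 h it was at 69.1% (log2 -0.53, SE 0.22, edgeR adjusted p = 0.0721), short of the threshold. The 24 h call is narrow: it was lost in 7 of 8 fits that left out a mouse and in 6 of 11 other settings. Of the exon bases of Cry2, 4.67% overlap D930015M05Rik on the other strand, and counting without strand drops reads there.

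Cry1, the other cryptochrome (chromosome 10, 85131700 to 85185064, minus strand), stood at 17.5 ± 0.392 CPM in vehicle mice (SD, n = 4), the smallest relative spread of any member there. At 24 h its mice stood at 18.4, 14.1, 14.7 and 7.81 CPM and at 48 h at 14.2, 19.1, 9.34 and 17.0 CPM. In each of these groups 3 of the 4 mice lay below the vehicle range and 1 above it, the lowest being 24 h mouse 4 and 48 h mouse 3. Its log2 fold change was -0.35 at 24 h (95% interval -0.94 to 0.24, edgeR adjusted p = 0.382) and -0.23 at 48 h (-0.82 to 0.36, edgeR adjusted p = 0.561). With the 18S pseudogene share as a covariate the direction turned, to 0.40 at 24 h (edgeR adjusted p = 0.509) and 0.71 at 48 h (edgeR adjusted p = 0.35).

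**Figure D2:**
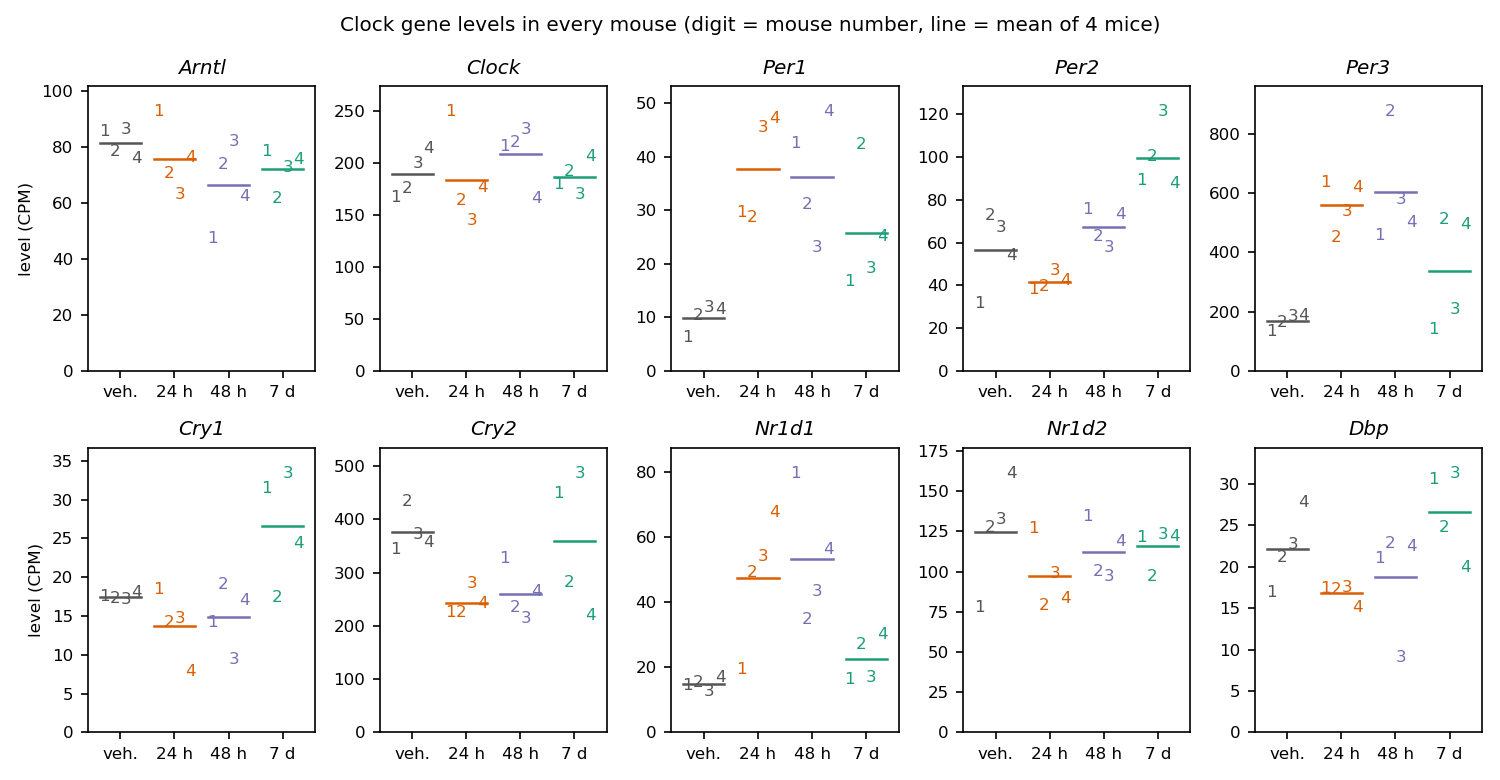
Level in CPM (linear axes from 0) of the 10 clock genes in every mouse; digits are mouse numbers within a group, horizontal lines group means of 4 mice. Per1 and Per3 of all 24 h and 48 h mice lie above all vehicle mice, and at 7 days Per3 of mice 2 and 4 (511 and 495) lies far above mice 1 and 3 (140 and 208).

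Nr1d1 (REV-ERB alpha), a nuclear receptor that represses Arntl, lies on chromosome 11 from 98767932 to 98775333, minus strand. It stood at 14.4, 15.2, 12.7 and 16.7 CPM in vehicle mice and at 19.2, 49.0, 53.9 and 67.5 CPM at 24 h. The 48 h mice stood at 79.5, 34.8, 43.1 and 56.1 CPM. All treated mice lay above the vehicle mice, though 24 h mouse 1 only just did. Nr1d1 rose 3.21-fold at 24 h (log2 1.68, SE 0.33, edgeR adjusted p = 0.00337) and 3.62-fold at 48 h (log2 1.86, SE 0.33, edgeR adjusted p = 0.00188). Without 24 h mouse 1 and 48 h mouse 1, which stood apart on the second principal component, the log2 values were 1.95 (edgeR adjusted p = 0.00274) and 1.60 (edgeR adjusted p = 0.00483). Without the same mice, Per1 was at log2 2.02 (24 h) and 1.79 (48 h) and Per3 at 1.68 and 1.96, all past the threshold. The lowest Nr1d1 mouse at each time (24 h mouse 1 and 48 h mouse 2) was also the lowest in the 18S pseudogene, at 3258 and 5108 CPM, and the highest (24 h mouse 4 and 48 h mouse 1) the highest, at 15064 and 16124 CPM. Of the exon bases of Nr1d1, 8.55% overlap Thra on the other strand.

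The calls for Per1, Per3 and Nr1d1 ended when the 18S pseudogene share was a covariate. With the covariate, the 24 h log2 fold change was 1.40 for Per1 (edgeR adjusted p = 0.118), 1.74 for Per3 (edgeR adjusted p = 0.104) and 0.47 for Nr1d1 (edgeR adjusted p = 0.424). At 48 h it was 1.24 for Per1 (edgeR adjusted p = 0.221), 1.85 for Per3 (edgeR adjusted p = 0.177) and 0.46 for Nr1d1 (edgeR adjusted p = 0.518). The Per3 fold change was thus as large with the covariate as without it, and that of Nr1d1 was smaller. The share differed between vehicle and the 24 h and 48 h groups without overlap, and under this covariate no gene of the 17941 was called at either time, with 3398 and 2819 at an unadjusted p below 0.05.

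Nr1d2 (REV-ERB beta; chromosome 14, 18204054 to 18239127, minus strand), the second REV-ERB receptor, did not pass the test. It stood at 125 ± 34.7 CPM (vehicle), 96.9 ± 21.7 (24 h), 112 ± 17.4 (48 h) and 116 ± 12.6 (7 days), each the mean ± SD of 4 mice, and every pair of groups overlapped. Its log2 fold change was -0.36 at 24 h (95% interval -0.80 to 0.08, edgeR adjusted p = 0.215) and -0.15 at 48 h (-0.59 to 0.29, edgeR adjusted p = 0.621).

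Dbp, a PAR bZIP factor that carries clock output to D-box genes (chromosome 7, 45705088 to 45710203, plus strand), did not pass the test either. It stood at 22.1 ± 4.52 CPM (vehicle), 16.8 ± 1.12 (24 h), 18.8 ± 6.56 (48 h) and 26.6 ± 5.37 (7 days), each the mean ± SD of 4 mice. The log2 fold change of Dbp was -0.40 at 24 h (95% interval -0.95 to 0.16, edgeR adjusted p = 0.28) and -0.23 at 48 h (-0.79 to 0.32, edgeR adjusted p = 0.522). Of its exon bases 18.01% overlap Sphk2 on the other strand, which limits its counts.

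**Figure D3:**
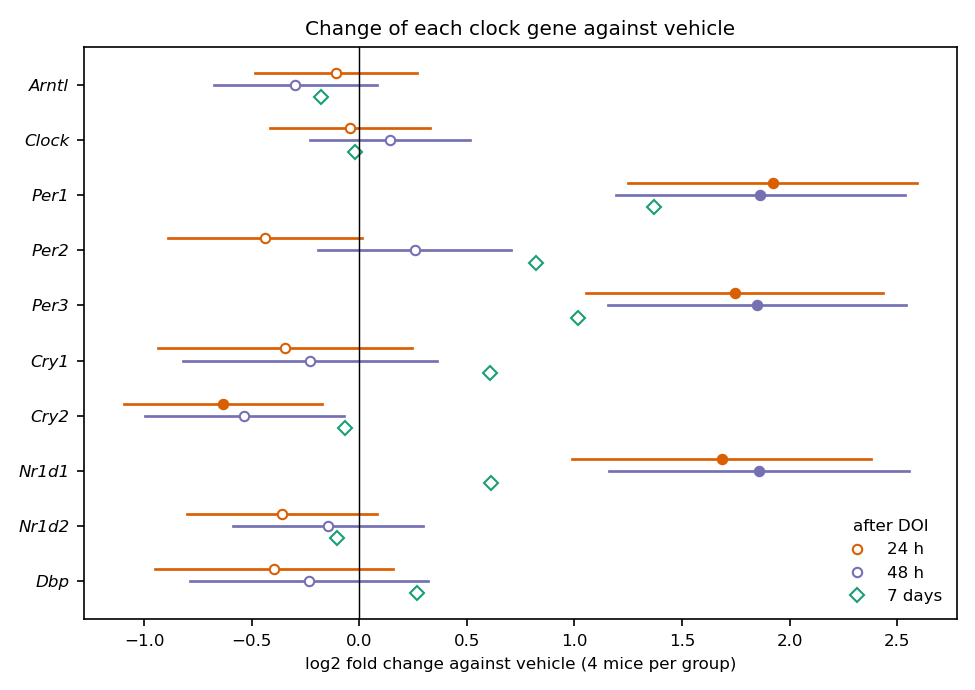
Log2 fold change of each clock gene against vehicle at 24 h, 48 h and 7 days (4 mice per group). Lines are 95% intervals for the 2 tested times, filled circles passed the edgeR threshold, and 7 days diamonds are a description without a test; Per1, Per3 and Nr1d1 lie between 1.68 and 1.92 at 24 h and 48 h.

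Between 48 h and 24 h no member was called, and neither was any of the 17941 genes (0%). At an unadjusted p below 0.05 the edgeR fit had 338 genes (1.88%), and DESeq2 called 0 with 452 unadjusted. The member among them was Per2, with all 4 mice at 48 h (58.0 to 75.5 CPM) above all 4 at 24 h (38.1 to 47.0 CPM). Its log2 difference was 0.69 (SE 0.22, unadjusted p = 0.00463, edgeR adjusted p = 1), and among all genes 1.1% were higher and 0.853% lower at 48 h without overlap. For Per1 the difference was -0.06 (95% interval -0.70 to 0.59), for Per3 0.10 (-0.56 to 0.77) and for Nr1d1 0.17 (-0.50 to 0.84). These intervals leave room for a change of up to about 1.79-fold in Nr1d1.

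At 7 days, the time that chose the set, Per1 stood at 16.7, 42.2, 19.1 and 25.0 CPM in mice 1 to 4, all above the vehicle mice (6.23 to 11.8). Per2 stood at 89.2, 100.2, 121 and 87.9 CPM, also all above vehicle (31.6 to 72.9). Groups without overlap were 2 of the 10 members, both higher, beside 2.81% of all genes higher and 3.04% lower, from which nothing is read since this contrast chose the set. The log2 fold change was 1.37 for Per1, 0.82 for Per2 and 1.02 for Per3, and the median over the members was 0.44 (0.02 over all genes).

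The 7 days mice differed among themselves in most of these genes. Per3 stood at 140, 511, 208 and 495 CPM in mice 1 to 4, so that mice 2 and 4 were at the 24 h and 48 h levels and mouse 1 within the vehicle range. Nr1d1 stood at 16.3, 27.01, 16.8 and 30.1 CPM and Cry2 at 448, 281, 486 and 220 CPM. Mice 2 and 4 were thus the higher pair in Per1, Per3 and Nr1d1 and the lower pair in Cry2, and they were also the pair with the 18S pseudogene at 6171 and 4622 CPM and the higher striatal marker sums. Per2 showed no such division, since mouse 3 was highest and mouse 4 lowest. In Per1 the gap between the pairs was small, with mouse 4 at 25.0 and mouse 3 at 19.1 CPM. Cry1 stood at 31.4, 17.4, 33.4 and 24.3 CPM and Dbp at 30.6, 24.8, 31.3 and 19.9 CPM, with mice 1 and 3 the higher pair in both. The part of the 18S pseudogene and of the striatal markers in these differences was not tested.

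**Figure D4:**
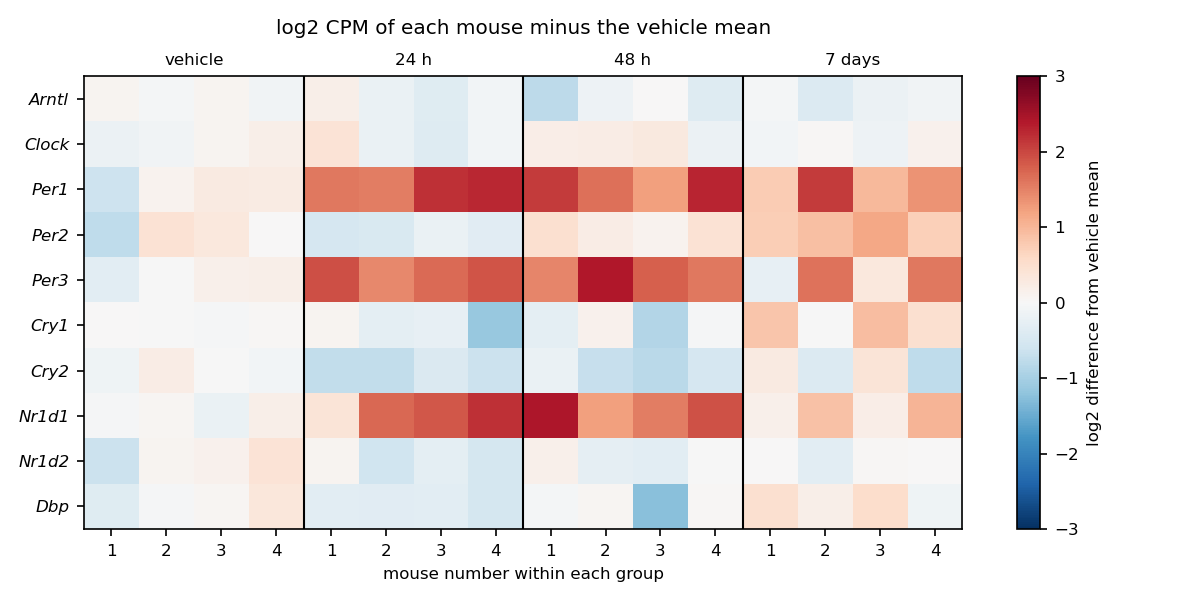
Log2 CPM of each clock gene in each mouse minus the vehicle mean of that gene (red higher, blue lower), with mice as columns by group. Per1, Per3 and Nr1d1 are red in nearly all 24 h and 48 h mice, with Nr1d1 of 24 h mouse 1 pale, and at 7 days Per2 is red in all 4 mice while Per3 is red mainly in mice 2 and 4.

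Per1 and Per3 were each the nearest member to the other over the 16 mice. The measure was the root mean square difference of log2 CPM after centring each gene on its mean, which was 0.482 for that pair. Nr1d1 was nearest to Per1 (0.500), Arntl and Clock to each other (0.273), Nr1d2 to Clock (0.283), and Cry1 and Dbp to each other (0.316). Cry2 and Per2 had Dbp as their nearest member, at 0.329 and 0.445. Genes that vary little differ little by this measure, whether or not they move together. The SD of log2 CPM over the 16 mice was 0.236 for Arntl, 0.215 for Clock and 0.303 for Nr1d2. For Per1 and Per3 it was 0.892 and 0.903. The small values among Arntl, Clock and Nr1d2 are therefore not read as a shared profile. Among the other 12793 genes whose mean log2 CPM was 2 or more, the 5 most like Per1 were Zfp646 (0.352), Pitpnm2 (0.356), Zmiz2 (0.364), Plagl2 (0.369) and Epb41l1 (0.377). Per3 ranked 143 and Nr1d1 212 among them, so the 5 named genes and others followed the Per1 profile more closely than any fellow member did. Pitpnm2, for example, stood at 18.2 ± 3.15 CPM (vehicle), 70.8 ± 15.2 (24 h), 66.6 ± 16.7 (48 h) and 38.0 ± 18.8 (7 days), each the mean ± SD of 4 mice.

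The 22 other genes of the clock pathway described here were all tested. At 24 h 1 was higher and 3 were lower (18.2%), and at 48 h 2 were higher and 3 lower (22.7%), beside 24.2% and 30.1% of all genes called in either direction. The median log2 fold change was -0.06 at 24 h and -0.07 at 48 h. The list's share of called genes was thus not above that of all genes.

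The kinase gene Gsk3b, whose product phosphorylates clock proteins, rose at both times, from 78.8 ± 7.09 CPM for vehicle to 150 ± 38.0 at 24 h and 185 ± 27.4 at 48 h (SD, n = 4). The log2 fold changes were 0.93 (edgeR adjusted p = 0.0302) and 1.23 (edgeR adjusted p = 0.00684). With the 18S pseudogene share as a covariate they were 0.060 (edgeR adjusted p = 0.933) and 0.19 (edgeR adjusted p = 0.811), and the 24 h call was also lost in 7 of 8 fits that left out a mouse. Npas2, which can take the place of Clock, stood at 13.0 ± 2.15, 20.4 ± 5.77 and 20.4 ± 4.94 CPM, a log2 fold change of 0.65 at each time that did not pass (edgeR adjusted p = 0.0663 and 0.0574). It passed in 4 of 11 other settings at 24 h and in 6 of 11 at 48 h, DESeq2 among them at both times.

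Bhlhe40 (DEC1), a repressor that competes for E-boxes, fell from 81.5 ± 13.6 CPM for vehicle to 40.9 ± 10.3 at 24 h and 43.0 ± 17.8 at 48 h. The log2 fold changes were -0.99 (edgeR adjusted p = 0.0295) and -0.92 (edgeR adjusted p = 0.0349). Its relative Bhlhe41 (DEC2) rose at 48 h (log2 0.64, edgeR adjusted p = 0.035) and stood at 0.36 at 24 h (edgeR adjusted p = 0.227). Of the exon bases of Bhlhe41, 19.0% overlap Gm43909 on the other strand.

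Nono, an RNA-binding partner of PER proteins, fell at 24 h (log2 -0.95, edgeR adjusted p = 0.0226) and 48 h (-0.79, edgeR adjusted p = 0.0415). Btrc, a ubiquitin ligase subunit that marks PER proteins for breakdown, fell at 24 h (log2 -0.67, edgeR adjusted p = 0.0189) and stood at -0.41 at 48 h (edgeR adjusted p = 0.107). Nfil3, a repressor at D-boxes, fell at 48 h (log2 -1.17, edgeR adjusted p = 0.0445) and stood at -0.62 at 24 h (edgeR adjusted p = 0.283). Under the 18S covariate 0 of the 22 genes were called at either time, though not all values shrank. Bhlhe40 was then at log2 -1.28 (24 h) and -1.29 (48 h), Nono at -1.11 and -0.98 and Btrc at -0.82 and -0.60, while Nfil3 at 48 h was at -0.89 and Bhlhe41 at 48 h at 0.41. Most of these calls lie near the threshold. The Nfil3 call at 48 h was lost in 8 of 8 fits that left out a mouse and in 5 of 11 other settings, and the Nono call at 48 h in 7 of 8 and 3 of 11. Of the Bhlhe40 calls, each was lost in 5 of 8 such fits, as was the Bhlhe41 call at 48 h. Leaving out vehicle mouse 1, 2, 3 or 4 or 24 h mouse 2, 3 or 4 left 1 or 2 calls at 24 h, where there were 4, and leaving out vehicle mouse 1, 2, 3 or 4 or 48 h mouse 2, 3 or 4 left 1 to 3 at 48 h, where there were 5. With the mouse number as a block 3 were called at 48 h, and with only the 2 groups compared 8.

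**Figure D5:**
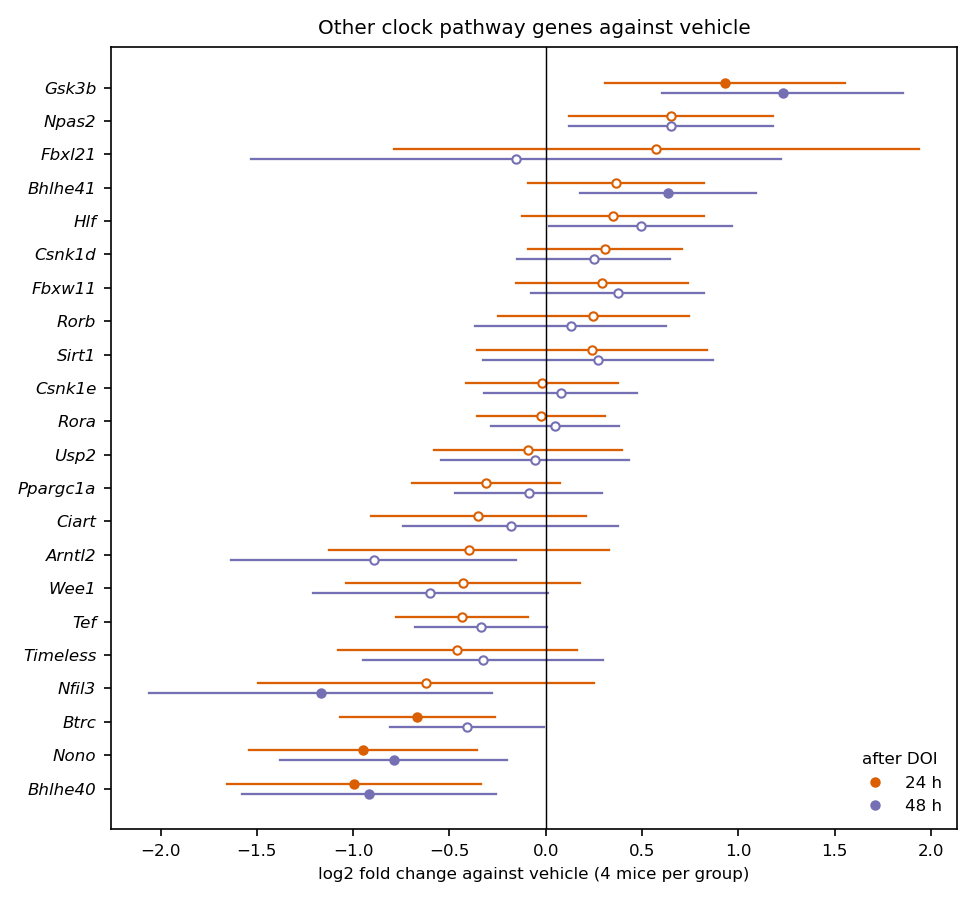
Log2 fold change of 22 other clock pathway genes at 24 h and 48 h against vehicle with 95% intervals (4 mice per group), ordered by the 24 h value. Filled circles passed the edgeR threshold; Gsk3b (0.93 and 1.23) is at the top and Bhlhe40 (-0.99 and -0.92) at the bottom.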

How the data were processed

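RNA-seq counts of 32 libraries from 16 mice were used. The deposited unit is the raw count of reads on a gene's exons, made with featureCounts 2.0.0 on the GRCm38 annotation, per the file headers. The headers set no strand, pairing, multi-mapping or overlap option. The submitters' processing notes also name Trim Galore 0.6.5, Bowtie2 2.4.1, DESeq2 1.30.0 and the build mm10, without saying which step they served, and an RNA aligner is not given in the sources used here. By default, reads on exons shared by overlapping genes are not counted. Libraries were made with SMART-seq2 and Nextera XT, per the labels' protocols, without molecular identifiers, so the floor of 3 counts covers counting error only, while the intervals of fold changes come from the fit and cover the spread between mice.

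The 2 libraries of a mouse differed beyond sampling noise (chi-square per degree of freedom 1.35 to 2.44) and were added together, which makes the mouse the unit of replication. The headers give 3 mice another number than the labels do (mouse 1 at 24 h, mouse 2 at 48 h, mouse 2 at 7 days) but the same group. Library totals were 2763704 to 7436451 counts, and 3 counts, the smallest level the depth could show, were 0.254 to 0.502 CPM. Genes were filtered with filterByExpr, scaled with TMM and fitted over all 16 mice with edgeR 4.0.16 (R 4.3.3) by the quasi-likelihood test, with Benjamini-Hochberg adjustment over 17941 genes at 0.05. Log2 CPM used a prior count of 2. Symbols were found for 55141 of 55401 IDs. The fit was also run on simulated counts with the same setting of spread for every gene. That is simpler than these data, so it gives no support to the calls here. The p-values weigh a difference between groups against the spread between mice, which was estimated over all 16 mice, those of 7 days included.

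Some genes of the pathway are not reported here. The members, lists and alternatives were chosen with earlier results of these data known. All members were named, as were at most 4 other pathway genes in each direction and time past the threshold, Npas2 always, and the 5 genes most like Per1. Alternatives were DESeq2 1.42.0, other scaling, no filter, each library alone, only the compared groups, the mouse number as a block, 2 covariates and mice left out. Fits that left out a single mouse are given only for mice of the 2 groups compared. Mouse numbers of different groups belong to different animals, and the mean correlation of same-numbered mice was -0.05 to -0.01.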

Additional observations from a re-analysis of the deposited data

Results flagged for a closer look

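In 3 groups of 4 mice a single mouse lay far from the others by Dixon's test at 95%, out of 68 groups tested, where chance alone gives about 3.4. Nr1d2 at 7 days was 96.9 CPM in mouse 2, below the next lowest mouse at 121. Dbp at 24 h was 15.2 CPM in mouse 4, below the next lowest at 17.3. Dbp at 48 h was 9.04 CPM in mouse 3, below the next lowest at 21.0, and that mouse was also the lowest of its group in Cry1 (9.34 CPM).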

How the results depend on the processing

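With any mouse of the 2 compared groups left out, 3 or 4 members were called at 24 h and at 48 h. Between 48 h and 24 h the number was 0. The calls for Per1, Per3 and Nr1d1 were lost in 1 of 11 other settings, the 18S pseudogene share as a covariate, and in 0 of 8 fits with a mouse left out. Under that covariate 0 members were called at 24 h and 0 at 48 h, and 0 other pathway genes at each time; the share does not overlap between vehicle and these groups. With the mouse number as a replicate block 3 members were called at 24 h, 3 at 48 h and 0 between those times, and 4 and 3 other pathway genes at 24 h and 48 h. The block ended the Cry2 call at 24 h (edgeR adjusted p = 0.0565); the numbers do not pair the mice. With total counts only, 3 other pathway genes were called at 48 h, all higher, the median of all genes moved from 0.03 to 0.14 at 24 h and from 0.02 to 0.12 at 48 h, and the share of calls that were higher from 57% to 67.3% and from 55.8% to 64.2%. With only the 2 groups compared, 8 other pathway genes were called at 48 h. Their calls ranged from 1 to 3 at 24 h and from 1 to 4 at 48 h with a mouse left out. Cry2 at 48 h passed without 48 h mouse 1 (-0.68, edgeR adjusted p = 0.0479), without both that mouse and 24 h mouse 1 (-0.66) and with only the 2 groups compared (-0.51). These were 1 of 8 fits with a mouse left out and 2 of 11 other settings.

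Some values short of the threshold changed sign. Under the 18S covariate these log2 fold changes were 0.40 and 0.71 for Cry1 at 24 h and 48 h, 0.15 and 0.0097 for Arntl, 0.10 for Clock at 24 h, 0.14 for Nr1d2 and 0.17 for Dbp at 48 h, and -0.0076 for Nr1d1 between 48 h and 24 h. Clock at 24 h was 0.058 with total counts and 0.069 with library 1 alone, and Per1 between 48 h and 24 h was 0.084 with library 1 alone. Without 24 h mouse 1 and 48 h mouse 1 the difference between 48 h and 24 h was -0.062 for Cry2, 0.055 for Arntl and -0.34 for Nr1d1. With a mouse left out, that difference ranged from -0.23 to 0.11 for Per1, -0.13 to 0.22 for Per3, -0.083 to 0.29 for Cry1, -0.028 to 0.18 for Cry2 and -0.086 to 0.39 for Nr1d1, Clock at 24 h from -0.22 to 0.050 and Nr1d2 at 48 h from -0.32 to 0.0040. The cause was not tested. Depth limits Dbp, Cry1 and Per1 most, with 61, 63 and 66 counts in their lowest mouse.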
